A study of Micromonas commoda with 15 samples.

Results

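The transcript profile of Micromonas commoda cultures given zinc as a dissolved salt, ZnSO4, was compared with that of cultures given iron as a dissolved salt, FeCl3. The comparison uses the 3 ZnSO4 and the 3 FeCl3 libraries of a series of 15 libraries, which were chosen by their labels, and covers all 10300 gene models of the deposited table. Of these models, 10012 had enough reads to be tested and 288 did not. All cultures were of strain RCC299 (Noum17) in L1 medium. The metal was added 24 h after flasks of 140 ml were prepared, and cells from 100 ml were collected after 48 h of exposure. ZnSO4 cultures received zinc at the concentration given to the ZnO particle cultures, stated as 0.8 mg/L. FeCl3 cultures received iron at the concentration given to the Fe2O3 particle cultures, stated as 2.4 mg/L. ZnO particles (1e-05 M), Fe2O3 particles (3e-05 M) and unexposed control cultures, with 3 libraries each, serve here for comparison. The stated mass and molar concentrations do not describe equal amounts of metal, so the exact metal dose of the salts is not settled. By either statement the metals were given at different doses, and the metal and its dose cannot be told apart. Nothing in the labels says that the libraries of a group came from separate flasks, so the p-values measure the spread between these libraries, which may be technical.

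Micromonas commoda is a marine green alga of the picoplankton, with a single chloroplast and a small genome. Algae need both metals in traces: iron sits in the cytochromes, iron-sulfur clusters and ferredoxin of photosynthetic electron transport, and zinc serves carbonic anhydrase and many DNA-binding proteins. In excess, zinc can displace other metals from proteins, while ferric iron has low solubility in seawater. L1 medium itself supplies iron and zinc with a chelator, so control cultures were not free of either. The files do not pair the gene models with names, and 0 of the 10300 identifiers matched the RefSeq gene table. Models are therefore described by their level and behaviour, with 2 identifiers printed in each direction, and nothing is said of pathways. For the same reason the labelled species was not checked against marker genes.

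Total counts ran from 41622282 to 46866621 in ZnSO4 libraries and from 44206961 to 48969454 in FeCl3 libraries. Levels are given as CPM, read counts scaled to library size with TMM factors that correct for composition, and are not corrected for model length. Bulk counts cannot tell a model used more in every cell from one used by more of the cells. The ZnSO4 libraries correlated with each other at r = 0.990 to 0.995 across models on the log2 CPM scale, and the FeCl3 libraries at 0.983 to 0.995. Between the salts r was 0.907 to 0.957. The first principal component of the 6 libraries held 83.4% of their variance and scored the ZnSO4 libraries at 39.4 to 52.7 and the FeCl3 libraries at -58.1 to -36.6. FeCl3 replicate 1 lay farthest out on the iron side, and it was also at one end of the second component (8.01% of the variance), at 22.3, with the other two FeCl3 libraries at -8.16 and -20.0. The median standard deviation (SD) of a model between libraries was 0.166 on the log2 scale in ZnSO4 cultures and 0.204 in FeCl3 cultures.

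Among the larger differences between ZnSO4 and FeCl3 cultures, rises outnumbered falls. With edgeR's quasi-likelihood test and a Benjamini-Hochberg adjusted p under 0.05, 5314 models (53.1% of those tested) were called. Of the models called and at least 2-fold apart, 1127 (11.3%) were higher and 794 (7.93%) were lower with ZnSO4. The asymmetry grew with size: past 4-fold there were 362 higher and 36 lower models, past 8-fold 160 higher and 2 lower, and past 16-fold 57, all higher. The median called rise was 0.996 and the median called fall -0.76 on the log2 scale. For 5204 of the 5314 called models (97.9%) the 3 ZnSO4 libraries did not overlap the 3 FeCl3 libraries, while 62.4% of all tested models showed no overlap (26.3% higher and 36.1% lower with ZnSO4). Many of the large rises were in models of low level: of the 362 and 36, 175 and 22 had a mean of at least 5 CPM over the 6 libraries. Of the 1127 and 794 models at least 2-fold apart, 709 and 641 had such a mean, so the excess of rises was smaller there. Among the 362, 1 model had no read in any FeCl3 library and 7 had 1 to 3 reads over the FeCl3 libraries together, so their folds are poorly bounded.

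Counted without regard to size, 2268 models (22.7%) were higher and 3046 (30.4%) lower with ZnSO4, and this majority of falls rests on the scaling. Over all models the median log2 fold change was -0.093. When libraries were scaled by their totals alone, 3436 were higher and 1434 lower, and with upper-quartile factors 2973 were higher and 2096 lower. Leaving out FeCl3 replicate 1 gave 2574 higher and 1625 lower, and leaving out ZnSO4 replicate 1, 2 or 3 gave 2725 and 1603, 2746 and 1720, or 2753 and 1899. Each of these omissions also recomputes the scaling factors. When the factors and the tested models of all 15 libraries were kept, an alternative chosen after seeing the data, the same 4 omissions gave 1894 to 2068 higher and 2576 to 2713 lower. The parts of the factors and of the tested models in this were not tested apart. Of 27 alternatives in all, 19 gave more falls than rises and 8 gave more rises. The 19 include DESeq2 (2685 higher, 2815 lower), limma voom (2333 and 3092) and these omissions with the factors kept. Limma voom, the stricter threshold, the robust dispersion, the replicate block and the omissions with the factors kept all used the main scaling factors. The tally of 19 and 8 therefore does not weigh the scaling. In all 28 alternatives that gave both counts, the models at least 2-fold higher outnumbered those at least 2-fold lower. The count of 794 was less steady than the count of 1127: it was 304 without FeCl3 replicate 1 (580 with the factors kept), 417 without ZnSO4 replicate 1 (718) and 481 without ZnSO4 replicate 2 (843). The 36 models at least 4-fold lower became 12 without FeCl3 replicate 1 (21 with the factors kept), 20 without ZnSO4 replicate 1 (36), 22 without ZnSO4 replicate 2 (45) and 62 without FeCl3 replicate 3 (62).

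**Figure D1:**
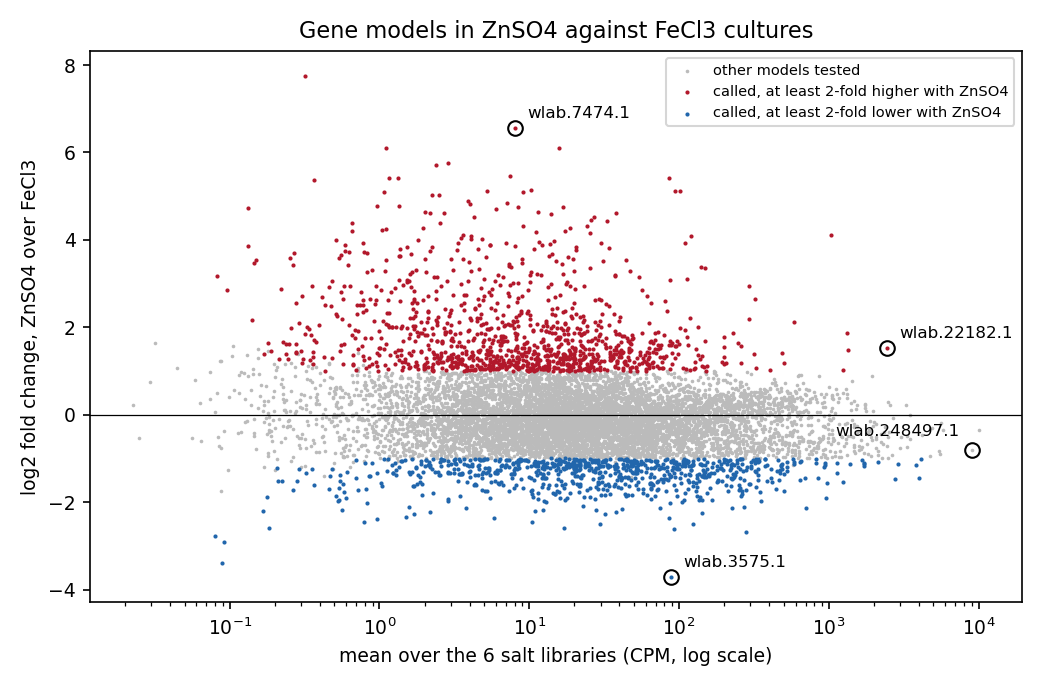
Log2 fold change of ZnSO4 over FeCl3 (vertical axis) against the mean level over the 6 salt libraries in CPM (horizontal axis, log scale) for the 10012 models tested, with the 1127 models called at least 2-fold higher in red, the 794 called at least 2-fold lower in blue and the 4 printed models circled. Rises reach beyond 16-fold in 57 models, while only 2 falls reach 8-fold.

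The direction of the difference followed the read level. The tested models were ordered by mean CPM over the 6 libraries and cut into 10 bins of 1001 or 1002. In the lowest bin (0.0225 to 2.09 CPM), 228 models were at least 2-fold higher with ZnSO4 and 79 lower. In the highest bin (202 to 10135 CPM), 19 were higher and 119 lower. Lower models first outnumbered higher ones in bin 8 (47.2 to 84.7 CPM), with 66 higher and 83 lower. The median log2 fold change was 0.17 in the lowest and -0.23 in the highest bin, and a scaling factor shared by all models leaves that gap as it is. Models at least 2-fold higher had a median level of 8.30 CPM, those at least 2-fold lower 29.1 CPM, and all tested models 19.3 CPM. Of the 100 most-read models, 6 were called higher and 52 lower with ZnSO4, where 22.7% and 30.4% of all tested models were. Their median log2 fold change was -0.50. Unlike the gap between the bin medians, the counts of calls here and in the bins can move with the scaling. They were not repeated under another scaling. The levels in CPM mix transcript length with abundance, since no lengths come with the models.

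**Figure D2:**
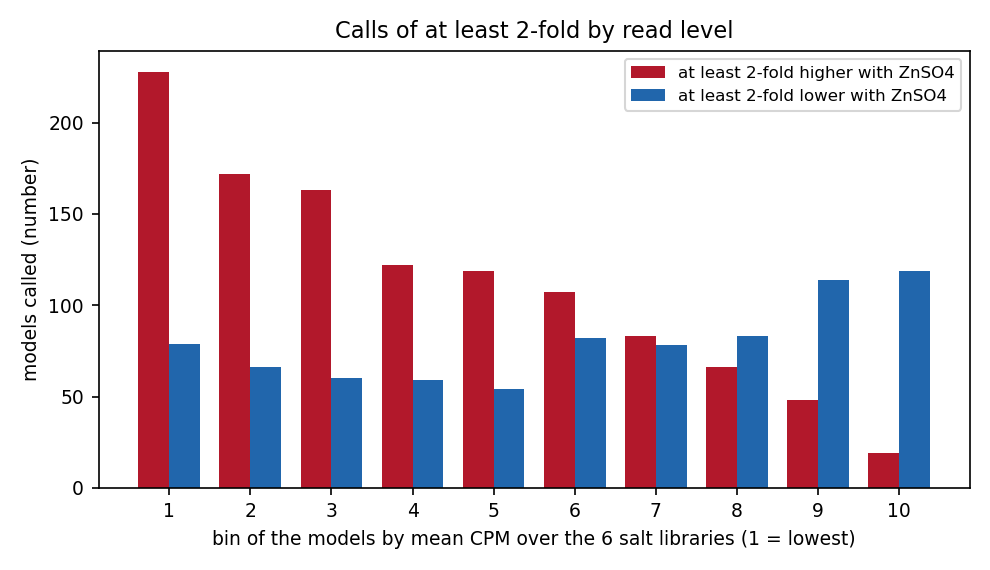
Number of models called at least 2-fold higher (red) or lower (blue) with ZnSO4 than with FeCl3 (vertical axis), in 10 bins of the tested models ordered by mean CPM over the 6 salt libraries (horizontal axis, 1 = lowest). Red bars stand at 228 in the first bin and 19 in the last, and blue bars are tallest in the last, at 119.

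The first printed model that was higher, wlab.7474.1, had the largest log2 fold change under the naming rule. It was near silence in FeCl3 cultures and clearly read in ZnSO4 cultures. Its levels were 11.5, 17.5 and 18.4 CPM in ZnSO4 libraries, against 0.115, 0.110 and 0.285 CPM in FeCl3 libraries, where it rested on 6, 5 and 12 reads. The lowest ZnSO4 library thus stood far above the highest FeCl3 library. The difference was 93.7-fold on a log2 fold change of 6.55 with a standard error (SE) of 0.87, and edgeR's quasi-likelihood test gave an adjusted p of 1.95e-05. ZnO particle libraries held 2.82, 2.42 and 2.84 CPM of it and Fe2O3 particle libraries 2.17, 1.53 and 1.88 CPM. All 6 particle libraries lay between the salts. In control cultures it was at 0.247 and 0.142 CPM in replicates 1 and 2 but at 4.07 CPM in replicate 3, so 1 control library lay apart from the other two and above every particle library.

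The second, wlab.22182.1, had the largest gain in mean CPM under the rule. It was an abundant transcript in every culture, at 4331, 3426 and 3047 CPM in ZnSO4 libraries, against 1060.5, 1312 and 1406 CPM in FeCl3 libraries. The groups did not overlap, and the mean rose by 2342 CPM, or 2.86-fold (log2 fold change 1.52 with SE 0.21; edgeR's quasi-likelihood test, adjusted p 3.02e-05). Control libraries, at 816 to 1290 CPM, overlapped the FeCl3 libraries. With particles it averaged 2761 ± 22.2 CPM for ZnO and 2763 ± 601 CPM for Fe2O3 (SD, n = 3 each), above every FeCl3 and control library. Between the particles the log2 fold change was -0.0011 (SE 0.21), with no call.

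Among models that were lower, wlab.3575.1 had the largest log2 fold change under the naming rule, and its fold was more than 2 times that of the next model the rule admits. It was at 9.15, 17.0 and 11.4 CPM in ZnSO4 libraries, against 186, 164 and 146 CPM in FeCl3 libraries. This is 13.2-fold lower (log2 fold change -3.72 with SE 0.32; edgeR's quasi-likelihood test, adjusted p 5.4e-07). The 3 ZnSO4 libraries were the lowest of all 15. Control libraries had 172, 73.6 and 86.8 CPM, ZnO particle libraries 125 to 152 CPM and Fe2O3 particle libraries 139 to 236 CPM. Against control its log2 fold change was -3.14 (SE 0.31) with ZnSO4, which passed the test, and 0.58 (SE 0.29) with FeCl3, which did not (edgeR's adjusted p was 8.97e-07 and 0.112).

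The largest loss in mean CPM under the rule fell on wlab.248497.1, one of the most-read models of the series. Its levels were 7168, 7024 and 5455 CPM in ZnSO4 libraries, against 10513, 13220 and 10806 CPM in FeCl3 libraries. The groups did not overlap, and the mean was lower by 4964 CPM (log2 fold change -0.81 with SE 0.18; edgeR's quasi-likelihood test, adjusted p 0.00162). Control libraries, at 12171 to 14403 CPM, overlapped the FeCl3 libraries. Every particle library lay above every salt library, at means of 16832 ± 400 CPM for ZnO and 20113 ± 2390 CPM for Fe2O3 (SD, n = 3 each).

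**Figure D3:**
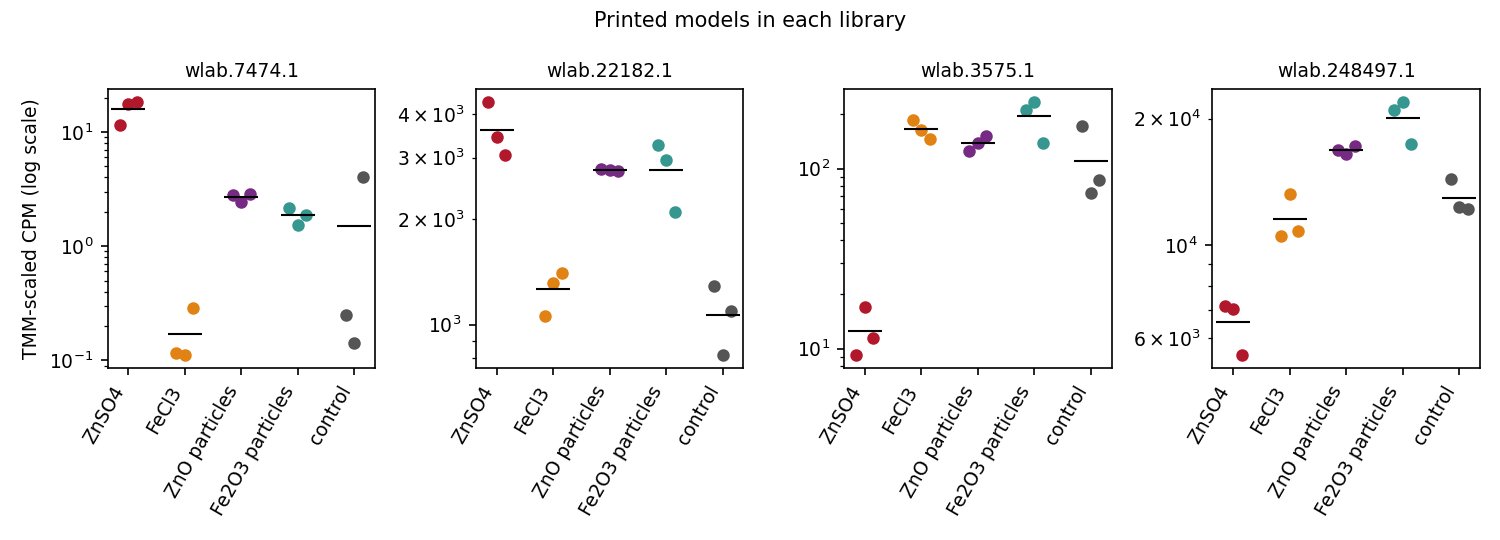
Level of the 4 printed models in each of the 15 libraries (vertical axes, TMM-scaled CPM, log scale, a separate axis for each model), with 3 points per group for the libraries and a bar for their mean. The left pair of models was higher and the right pair lower with ZnSO4 than with FeCl3, without overlap of these groups. Control replicate 3 stands apart for wlab.7474.1.

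The other 9 models with the largest rises under the naming rule, given here without identifiers, were 28.6- to 68.7-fold higher with ZnSO4. Their means ran from 10.2 to 198 CPM in ZnSO4 cultures and from 0.290 to 5.68 CPM in FeCl3 cultures. In 8 of the 9, ZnSO4 replicate 1 was the highest ZnSO4 library, where it was so in 38.3% of all tested models. In 9 of 9, control replicate 3 was the highest control, against 25.2% of all. It still lay under the lowest ZnSO4 library, at most at 0.389 of its level. Between ZnO and Fe2O3 particles the log2 fold changes of the 9 ran from -0.47 to 1.13, with an adjusted p of 0.254 or more in edgeR's test. The 9 models with the next largest gains in CPM after wlab.22182.1 changed less in proportion, 1.51- to 17.3-fold, with means of 954 to 2538 CPM in ZnSO4 cultures and 113 to 1367 CPM in FeCl3 cultures.

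The other 9 models with the largest falls under the rule were 4.84- to 6.46-fold lower with ZnSO4, at means of 1.90 to 75.4 CPM against 9.73 to 488 CPM in FeCl3 cultures. They therefore fell far less than the leading rises rose. FeCl3 replicate 1 was the highest FeCl3 library in 9 of 9, where it was so in 40.1% of all tested models. Between the particles 5 of the 9 were called lower with ZnO, where 11.7% of all models were, and 8 of the 9 log2 fold changes were below 0, where 48.5% of all models were. The lowest was -2.75. The 9 models with the next largest losses in CPM after wlab.248497.1 were 1.78- to 2.77-fold lower, at means of 1459.8 to 3919 CPM with ZnSO4 and 3448 to 7228 CPM with FeCl3.

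A small set of models was close to silence with one salt only. With limits chosen after the values were seen, 20 models were under 1 CPM in every FeCl3 library and over 5 CPM in every ZnSO4 library, and 0 models showed the reverse. The 20 were 9.78- to 93.7-fold higher with ZnSO4 and had 5 to 46 reads in each FeCl3 library. Their median level was 10.2 CPM with ZnSO4 and 0.498 CPM with FeCl3. Both kinds of particle left them between, at medians of 2.10 CPM for ZnO and 2.05 CPM for Fe2O3. In controls the median was 0.417 and 0.482 CPM in replicates 1 and 2 and 1.71 CPM in replicate 3, and 3 of the 20 were under 1 CPM in all 3 controls.

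Control cultures show on which side of them each salt lay. Both salts are set against the same 3 control libraries, and these comparisons share libraries with the one that chose the models, so the values are a description. In all, 5789 models (57.8%) differed from control with ZnSO4 and 4393 (43.9%) with FeCl3. With only the groups compared in the fit, these counts were 4132 and 2977. The median SD of a model between control libraries was 0.272 on the log2 scale, above that of either salt. Over all tested models the median log2 fold change against control was -0.23 with ZnSO4 and 0.013 with FeCl3. The 1127 models at least 2-fold higher with ZnSO4 had a median log2 fold change against control of 1.85 with ZnSO4 and -0.09 with FeCl3. Of these, 991 (87.9%) were called higher than control with ZnSO4, where 22.2% of all tested models were. With FeCl3, 242 were called higher and 205 lower than control, or 21.5% and 18.2%, where 20.5% and 23.4% of all models were. With the iron salt the list thus held models on both sides of the controls, with quartiles of -0.60 and 0.55, and its shares of calls were near those of all models. The leading rises had log2 fold changes below 0 there. The value of wlab.7474.1 was -3.08 (SE 0.92; edgeR's quasi-likelihood test, adjusted p 0.0144). The next 9 ran from -1.99 to -1.08, of which 4 were called. Control replicate 3 was the highest control in each of these models, against 25.2% of all tested models. For wlab.7474.1 it held 4.07 CPM. Replicates 1 and 2, at 0.247 and 0.142 CPM, lay within the FeCl3 range of 0.110 to 0.285 CPM. The call of this model without control replicate 3 was not tested.

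The 794 models at least 2-fold lower with ZnSO4 had medians on opposite sides of control in the salts. Their median log2 fold change against control was -0.73 with ZnSO4 and 0.58 with FeCl3. With ZnSO4, 525 (66.1%) were called lower than control, where 35.6% of all models were. With FeCl3, 442 (55.7%) were called higher than control, where 20.5% of all models were. The 36 models at least 4-fold lower were called below control in 27 cases with ZnSO4 and above it in 15 cases with FeCl3.

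Single libraries were often the highest of their group, more so among the falls than among the rises of at least 2-fold. Among the 794 lower models, FeCl3 replicate 1 was the highest FeCl3 library in 667 (84.0%), where it was so in 40.1% of all tested models. Its median level over the 794 was 51.7 CPM, with 37.7 and 36.0 CPM in FeCl3 replicates 2 and 3, while the ZnSO4 libraries were at 15.4 to 17.3 CPM. Among the 1127 higher models, ZnSO4 replicate 1 was the highest ZnSO4 library in 625 (55.5%), against 38.3% of all tested models. It was the lowest in 311 (27.6%), against 39.4% of all. Medians over the 1127 were 13.5, 11.2 and 12.5 CPM in the ZnSO4 libraries. Among the 362 models at least 4-fold higher, ZnSO4 replicate 1 was the highest ZnSO4 library in 269 (74.3%). Medians over the 362 were 9.99, 6.54 and 8.01 CPM in the ZnSO4 libraries and 0.881 to 1.06 CPM in the FeCl3 libraries. Control replicate 3 was the highest control in 282 of the 362 (77.9%), against 25.2% of all tested models. Its median over the 362 was 1.69 CPM, beside 0.773 and 0.907 CPM in control replicates 1 and 2. The part of these libraries in each model's value was not tested beyond leaving them out. Without ZnSO4 replicate 1 the models at least 4-fold higher numbered 436 with the scaling factors recomputed and 340 with them kept.

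The models that were at least 2-fold higher took 5.93% ± 0.434 of the counted reads in ZnSO4 cultures and 1.59% ± 0.0484 in FeCl3 cultures (SD, n = 3 each). The models that were at least 2-fold lower took 6.86% ± 0.564 in ZnSO4 cultures and 14.1% ± 2.16 in FeCl3 cultures. These lists were chosen on the same libraries, so their gap is a description. In libraries that did not choose them, the higher list took 4.40% to 4.49% with ZnO particles, 3.63% to 4.15% with Fe2O3 particles and 1.33% to 1.90% in controls. The lower list took 10.5% to 11.2% with ZnO particles, 14.2% to 17.7% with Fe2O3 particles and 8.22% to 10.7% in controls. For the higher list both particles stood near each other and above controls, while for the lower list the iron particles stood with the iron salt.

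**Figure D4:**
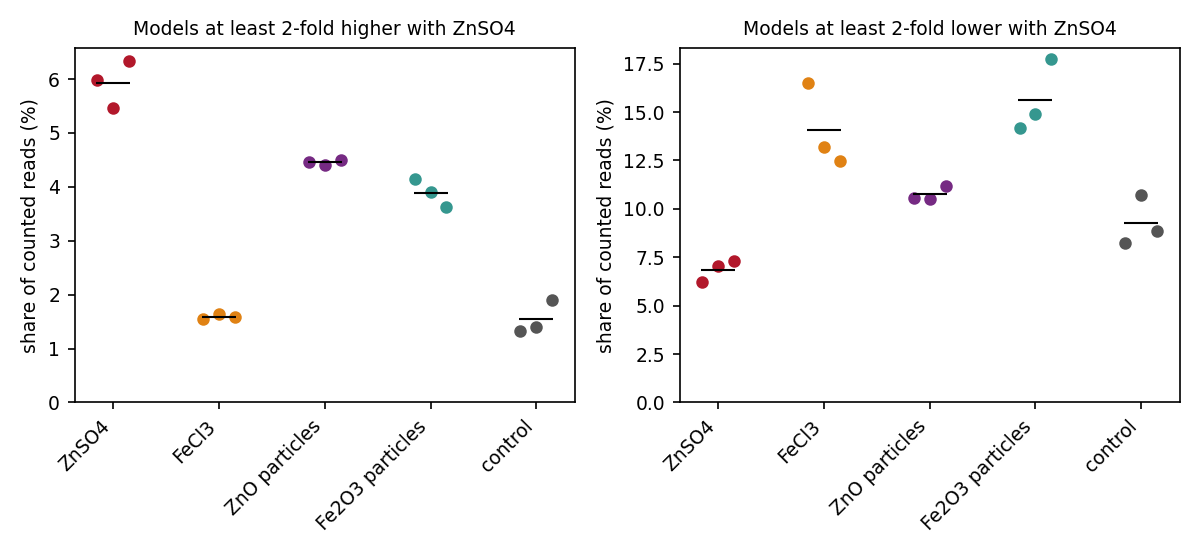
Share of counted reads (vertical axes, percent, from 0) taken by the 1127 models at least 2-fold higher with ZnSO4 (left) and by the 794 at least 2-fold lower (right), with 3 points per group for the libraries and a bar for their mean. For the lower list FeCl3 libraries (12.5% to 16.5%) overlap Fe2O3 particle libraries (14.2% to 17.7%). FeCl3 replicate 1 is the highest FeCl3 library.

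The same pair of metals can be compared as particles in libraries that the salt comparison does not use, with the same difference in stated dose. Between ZnO and Fe2O3 particles 1922 models (19.2%) were called, 750 higher (7.49%) and 1172 lower (11.7%) with ZnO. The median size of the log2 difference over all models was 0.27 between the particles and 0.49 between the salts. Of the 1127 models at least 2-fold higher with ZnSO4, 90 (7.99%) were called higher with ZnO particles, a share near the 7.49% of all models, and 35 (3.11%) were called lower, where 11.7% of all models were. Their median log2 fold change between the particles was 0.18, and 67.9% lay above 0, where 51.5% of all models did. Of the 794 at least 2-fold lower, 376 (47.4%) were called lower with ZnO particles, where 11.7% of all models were, with a median of -0.58. Falls of at least 2-fold thus recurred in part with particles, while the share of rises of at least 2-fold called higher there was near that of all models. Of the called rises under 2-fold, 181 of 1141 (15.9%) were called higher between the particles. Among called falls under 2-fold, 471 of 2252 (20.9%) were called lower there. Models at least 2-fold higher had a median level of 8.30 CPM, and those at least 2-fold lower 29.1 CPM. The part of read level in these shares was not tested. The shares for the 2-fold lists were recomputed over 13 alternatives of scaling, filter, threshold and tool, none of which left out a library. The share of rises of at least 2-fold called higher ran from 1.86% to 20.8%, beside 2.81% to 17.9% of all models. The share of falls of at least 2-fold called lower ran from 35.7% to 61.0%, beside 5.92% to 15.1% of all models.

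Among calls of any size, 847 models were lower in both forms. They are 27.8% of the falls between the salts, where 11.7% of all models fell between the particles. They are also 72.3% of the falls between the particles, where 30.4% of all models fell between the salts. Those higher in both numbered 271. They are 11.9% of the rises between the salts, where 7.49% of all models rose between the particles. They are also 36.1% of the rises between the particles, where 22.7% of all models rose between the salts. Across the 10012 models the log2 fold changes of the salts and of the particles had r = 0.341, given as a description, since models are not independent replicates and all libraries share 1 set of scaling factors.

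Whether the salts differed by another amount than the particles was tested in the same fit as an interaction. It was called in 2829 models (28.3%), of which 1392 were positive (13.9%) and 1437 negative (14.4%). In 2335 of them (82.5%) the difference between the salts was the larger in size. A log2 difference of at least 1 between the forms was called in 972 models with the higher value for the salts and in 439 with the lower. The interaction was positive and called for 911 of the 1127 models higher with ZnSO4 (80.8%), and negative and called for 346 of the 794 lower ones (43.6%). The salt difference that chose both lists is part of the interaction, so these counts are a description.

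**Figure D5:**
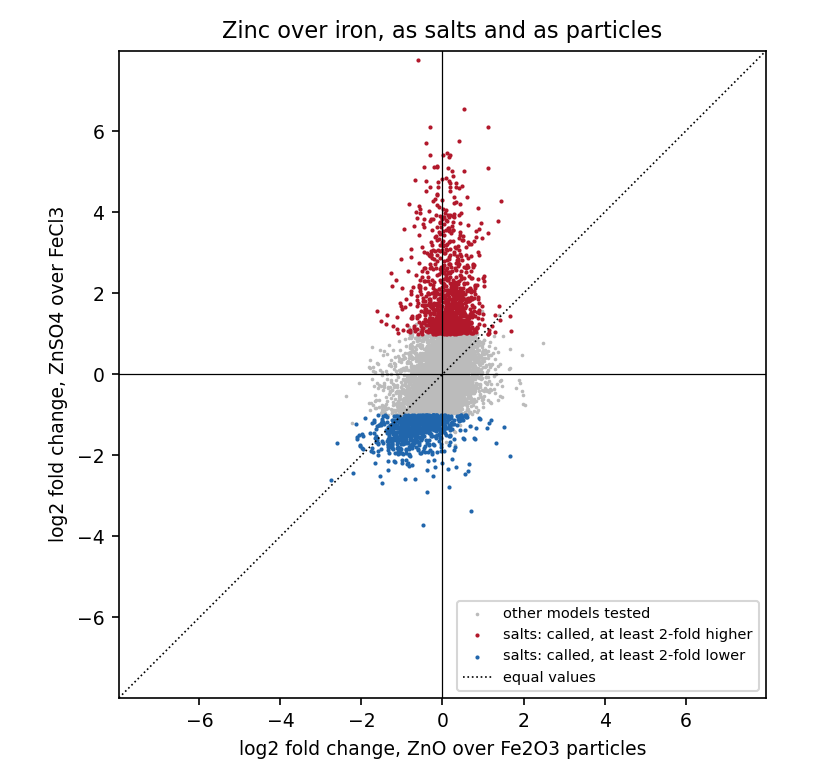
Log2 fold change of ZnSO4 over FeCl3 (vertical axis) against that of ZnO over Fe2O3 particles (horizontal axis) for the 10012 models tested, with models called at least 2-fold higher between the salts in red and at least 2-fold lower in blue. The dotted line marks equal values. Red points stand upright around 0.18 on the horizontal axis, while blue points lean to the left, around -0.58.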

How the data were processed

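Poly(A) RNA of 15 libraries was sequenced. The submitters' processing notes name CASAVA 2.17, Trim Galore 0.4.0, STAR without a version, and RSEM 1.3.0. The authors deposited whole-number counts per gene model with no visible normalization. The table's name speaks of HTSeq, so the counting program is not settled. Strand handling and genome build: not given in the sources used here. On 6 rows 3 identifiers repeat, and 29 identifiers carry a duplicate mark and may share reads with a partner. None of these is printed.

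The tests used edgeR 4.0.16 in R 4.3.3: filterByExpr (minimum count 10), TMM, 1 quasi-likelihood model of all 5 groups, and Benjamini-Hochberg adjustment over 10012 models with a threshold of 0.05. SE was taken as the size of the log2 fold change over the root of the F statistic. The common biological coefficient of variation was 17.3%. The steps were tested on simulated data. Alternatives used DESeq2 1.42.0, limma voom (limma 3.58.1), other scalings, filters and thresholds, and left-out libraries.

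Printed models were called, had no overlap between the salts, a mean of at least 5 CPM over the 6 libraries and no duplicate mark. In each direction they are the model with the largest log2 fold change and the one with the largest difference in CPM. The comparison, lists and rule were chosen with earlier results of these data known. Replicates differed beyond sampling noise in every group, with a chi-square per model of 14.7 or more.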

Additional observations from a re-analysis of the deposited data

Results flagged for a closer look

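The difference between zinc and iron was itself different between salts and particles in 2829 models (28.3% of those tested) by the interaction test in edgeR. The interaction passed the threshold for 3 of the 4 printed models. These were chosen for their difference between the salts, which is part of the interaction, so their values are a description. For wlab.7474.1 the interaction was 6.01 on the log2 scale (SE 1.09), from 6.55 for the salts and 0.54 for the particles. For wlab.22182.1 it was 1.52 (SE 0.29), from 1.52 for the salts and -0.0011 for the particles. For wlab.3575.1 it was -3.23 (SE 0.41), from -3.72 for the salts and -0.49 for the particles. The interaction of -0.56 for wlab.248497.1 (SE 0.26) did not pass the threshold.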

How the results depend on the processing

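The 4 printed models kept their direction and call between the salts in all 27 alternatives, and 523 of 578 alternative values of the 23 results kept their direction and side of the threshold or stayed within the limits set for counts and medians. The only results with a test of their own were the values of the 4 printed models, and none turned its direction. These models were chosen for large differences in the same libraries, so this says little of the other models. The split of all called models did turn: more were higher than lower in 8 of 27 alternatives. The median log2 fold change of all models was -0.016 with DESeq2 size factors, 0.17 with total counts only, 0.072 with upper-quartile factors, -0.015 and -0.038 with TMM scaled to ZnSO4 or FeCl3 replicate 1, -1.67e-05 with the median model set to 0, -0.014 in DESeq2, -0.021 at a mean of at least 5 CPM, -0.028 with only the groups compared in the fit, and -0.087 to 0.11 without 1 library. Total counts only gave 3436 higher, 1434 lower and 390 at least 2-fold lower models. Upper-quartile factors gave 514 at least 2-fold lower. A mean of at least 5 CPM left 503 at least 2-fold lower, 189 at least 4-fold higher and 3712 between ZnSO4 and control. An adjusted p under 0.01 left 963 models between the particles, 1573 interactions and 2678 between FeCl3 and control. A test against a 2-fold difference (glmTreat in edgeR) left 789 models, 579 higher and 210 lower with ZnSO4. Without 1 library, the models lower with ZnSO4 numbered 1603 to 2910, those at least 2-fold lower 304 to 958, and those called between the particles 1044 to 1672.

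ZnSO4 and FeCl3 samples with the same replicate number did not clearly deviate together (r of -0.216, 0.0916 and -0.332 for the 3 numbers). Of the 3 ZnSO4 libraries, 1 correlated best with its own number. These values show no pairing of the salts by number. With 3 libraries a side they cannot exclude it, and they do not cover the other groups. With the replicate block, 5452 models were called between the salts. With the replicate block and only the groups compared, 4383 were called between the salts, 3034 between the particles and 2630 between FeCl3 and control, with a median log2 fold change of -0.027 between the salts. Without the block, fits of only the groups compared called 5311 models between the salts, 2086 between the particles and 2977 between FeCl3 and control. With the block in the fit of all groups, 1986 were called between the particles and 4427 between FeCl3 and control. The cause of these shifts was not tested. Depth limits the 20 models near silence with FeCl3, which had 5 to 46 reads in a FeCl3 library.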

Other observations

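In 197 models the calls went in opposite directions between the salts and between the particles, which is 3.71% of the salt calls. Of these, 75 were higher with ZnSO4 than with FeCl3 and lower with ZnO than with Fe2O3 particles, with median log2 fold changes of 0.94 and -0.70. The other 122 were lower with ZnSO4 and higher with ZnO particles, with medians of -0.60 and 0.57. Such opposite calls were rarer than among all models. Of the rises between the salts, 3.11% of those at least 2-fold and 3.51% of the smaller ones were called lower between the particles. Among all models 11.7% were. Of the falls, 1.51% of those at least 2-fold and 4.88% of the smaller ones were called higher between the particles, where 7.49% of all models were.

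The table holds 46 models whose identifiers follow another scheme than the rest. Of these, 23 had enough reads to be tested, and 7 were called between the salts, 1 higher and 6 lower with ZnSO4, where 53.1% of all tested models were called, 22.7% higher and 30.4% lower. Among the 33 tested models with a repeated identifier or a duplicate mark, 8 were called, beside the same 53.1% of all tested models.

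In 4698 models the adjusted p in edgeR's quasi-likelihood test was not under 0.05. The 3 ZnSO4 and the 3 FeCl3 libraries did not overlap in 1041 of these, where 62.4% of all tested models showed no overlap. Lack of overlap with 3 libraries a side is a description and not a test.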
